A study of Mus musculus with 64 samples.

Results

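The infarct response of cardiac leukocytes was compared between newborn and adult mice, as the MI minus sham change at P56 minus the same change at P1. All 16 CD45 libraries of the 64 in the study entered the comparison, 4 in each of 4 groups, and 16239 of 20637 genes in the table passed the filter on low values and were tested. The mice were of the outbred CD1 strain, with no other allele named. Surgery was done at postnatal day 1 (P1) or day 56 (P56), either myocardial infarction (MI), in the adult by permanent ligation of the left descending coronary artery, or the same operation without it (sham), and ventricles were taken 3 days later. Adult animals were males operated at 8 weeks, whereas neonatal ventricles were cut up, digested and pooled in groups of 6, with no sex stated. The adult heart was washed free of blood by perfusion before it was digested, a step not described for the neonatal heart. Cells that carried CD45, the surface phosphatase of all leukocytes, were sorted from the non-myocyte fraction, so that each library mixed every kind of leukocyte in the ventricles.

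The heart holds tissue-resident macrophages that clear debris, recycle iron and present antigen. After an infarct, neutrophils and then classical monocytes enter from the blood, release inflammatory cytokines and matrix-cutting enzymes, and turn into macrophages that take up dead cells. Newborn mice can regrow heart muscle after an infarct and adult mice form a scar, which is the background to the comparison of the 2 ages.

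The libraries held 11495126 to 24692343 recovered reads. The 12 pan-leukocyte markers summed to 1694–2511 CPM (read counts scaled to library size) in the neonatal sham group, 4663–5691 in neonatal MI, 1648–3137 in adult sham and 4773–6209 in adult MI, so leukocyte RNA made up a larger share after MI at both ages. Ptprc, which encodes CD45 (chromosome 1, 138062861 to 138175708, GRCm38), was at 418, 355, 290.2 and 426 CPM in neonatal sham, 790.0, 799, 873 and 799.9 in neonatal MI, 373, 608, 574 and 534 in adult sham and 874, 571, 771 and 967 in adult MI. It was higher in each neonatal MI library than in any neonatal sham library, while the adult groups overlapped, and its difference of -0.54 ± 0.26 (SE; limma adjusted p = 0.0974) did not pass the test; without adult sham replicate 1 it was -0.69 and did (limma adjusted p 0.0201). RNA of other heart cells was present and unequal: 14 cardiomyocyte markers summed to 82238–226417 CPM in adult sham against 5918–20658 in adult MI, 20102–26296 in neonatal sham and 6158–16633 in neonatal MI. Endothelial markers summed to 4257–5102 CPM in neonatal sham and to 540.5–1025, 486–708 and 208–319 in neonatal MI, adult sham and adult MI. Adult sham replicate 1 had the most cardiomyocyte RNA and the lowest pan-leukocyte sum, and neonatal sham replicate 4 the fewest reads. In that neonatal library the 18S ribosomal RNA gene Rn18s-rs5 took 17.8% of reads, against 0.103% to 0.228% in the other 3 of its group, and in adult MI replicate 1 it took 7.07%, against 0.0922% to 0.19%; the part of RNA quality in the results was not tested. Without adult sham replicate 1 and neonatal sham replicate 4 together 6851 genes differed between the ages, against 7347 with all 16. Xist, the RNA of the inactive X chromosome, was at 748, 590.0, 248 and 1.8 CPM in the neonatal sham libraries, at 447–740.2 in neonatal MI and at 2.03–3.11 and 0.275–1.21 in adult sham and MI, so neonatal sham replicate 4 stood apart from the other neonatal libraries. In sorted bulk samples fewer cells of a type and less RNA per cell cannot be told apart.

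**Figure D1:**
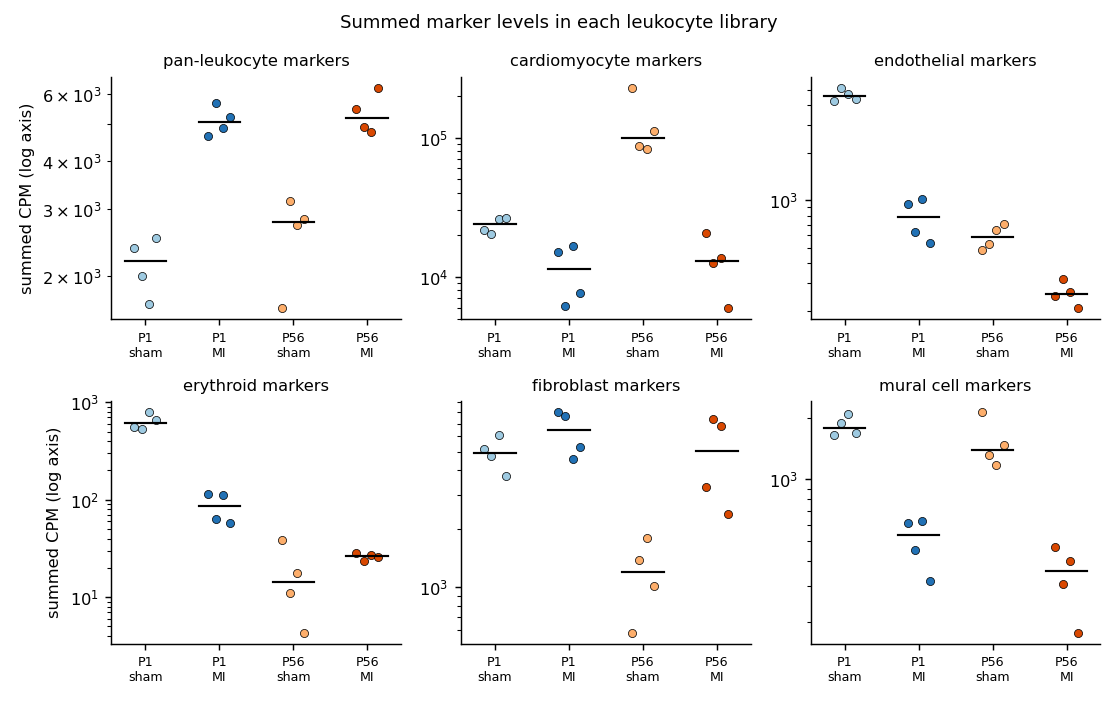
Summed CPM (log axis) of 6 marker lists in each of the 16 leukocyte libraries; points are libraries and bars are medians. Pan-leukocyte sums were higher in MI at both ages, cardiomyocyte sums were highest in adult sham, and endothelial and erythroid sums were highest in neonatal sham.

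The response to the infarct differed between adult and neonatal CD45 libraries over a large part of the transcriptome. These libraries also held RNA of other heart cells, whose part in the calls was not tested. Limma, which fits every gene with a shared estimate of its spread, called 7347 genes at an adjusted p under 0.05, or 45.2% of those tested: 3849 (23.7%) had a more positive response at P56 and 3498 (21.5%) a more negative one. Among 1242 leukocyte-enriched genes, those at least 2-fold above each of the other 3 sorted populations over all groups, the balance went the other way, with 229 (18.4%) more positive and 426 (34.3%) more negative. At P1, 3674 genes (22.6%) were higher and 3663 (22.6%) lower in MI, and at P56 4985 (30.7%) were higher and 4680 (28.8%) lower. Of the genes higher at one age, 1849 were higher at both, which is 50.3% of the P1 genes and 37.1% of the P56 genes. In 1050 genes (6.47%), 104 of them leukocyte-enriched, the difference and both responses were called and the responses had opposite signs.

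The directions at each single age depend on what the libraries are scaled to. When the libraries were set to equal pan-leukocyte marker levels, 86 genes were higher and 14558 lower in MI at P1, and 545 higher and 13415 lower at P56, as the larger leukocyte share of the MI libraries requires. The difference between ages moved less in its median over all genes, from 0.02 to 0.13 log2 units, but its calls fell from 7347 to 3596. Of the 7347 main calls 48.5% were kept and 0 changed sign. Genes called more negative at P56 went from 3498 to 1146, and 68.1% of the 3596 were more positive against 52.4% in the main fit. With plain library totals the median was 0.15 and 61.2% of 4806 called genes were more positive. Of the genes named in the text, MI against sham was called for 61 at P1 and 89 at P56, and under marker scaling 28 and 11 of these calls were lost, 31 and 10 other named genes became called, and 4 and 1 calls changed sign. For that reason each group of genes below is described first by its difference, and a direction at a single age is given for a list together with its count under marker scaling.

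Where the responses differed, the ages were mostly farther apart in sham than in MI. Among the 229 leukocyte-enriched genes with a more positive response at P56, the median adult minus neonatal gap was -1.86 log2 units in sham and -0.06 in MI. Among the 426 with a more negative response it was 1.27 in sham and -0.01 in MI. Without regard to sign, the median gap in MI was 0.58 and 0.36 log2 units in these sets, against 1.86 and 1.27 in sham, and over all leukocyte-enriched genes it was 0.43 in MI and 0.98 in sham. The gap was smaller in MI than in sham for 89.5% and 87.6% of these genes, against 76.9% of all genes tested. These gaps use the same 4 group means as the difference itself and describe it rather than support it.

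**Figure D2:**
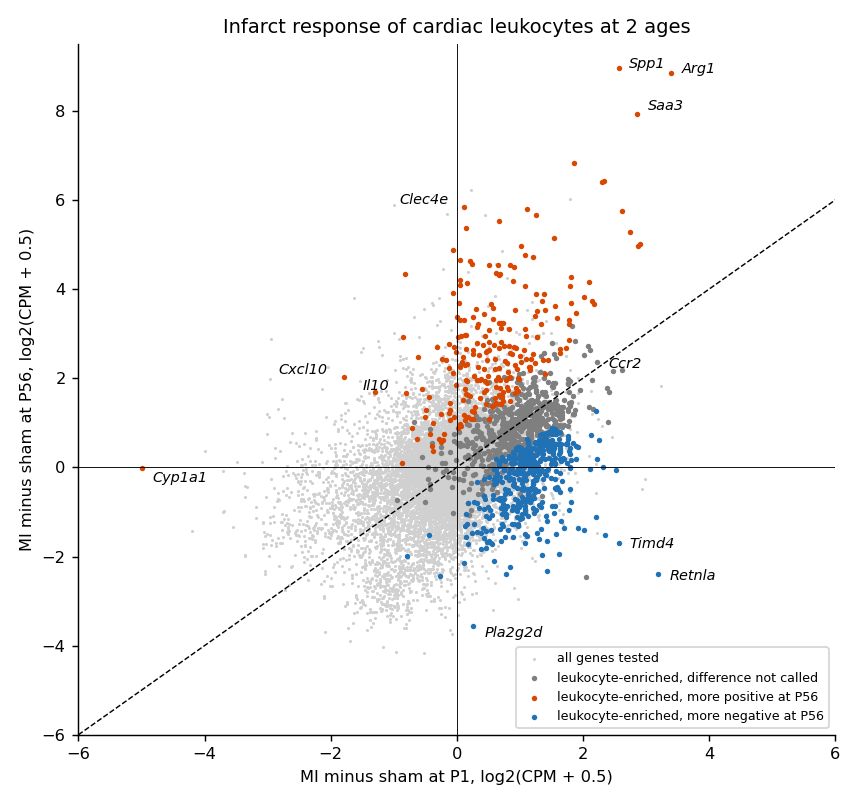
MI minus sham at P1 (x axis) against P56 (y axis), both in log2(CPM + 0.5), for all 16239 genes tested, with the 1242 leukocyte-enriched genes in colour and the dashed line at equal responses. Spp1, Arg1, Saa3 and Clec4e lie far above the line, and Timd4, Retnla and Pla2g2d far below it.

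**Figure D3:**
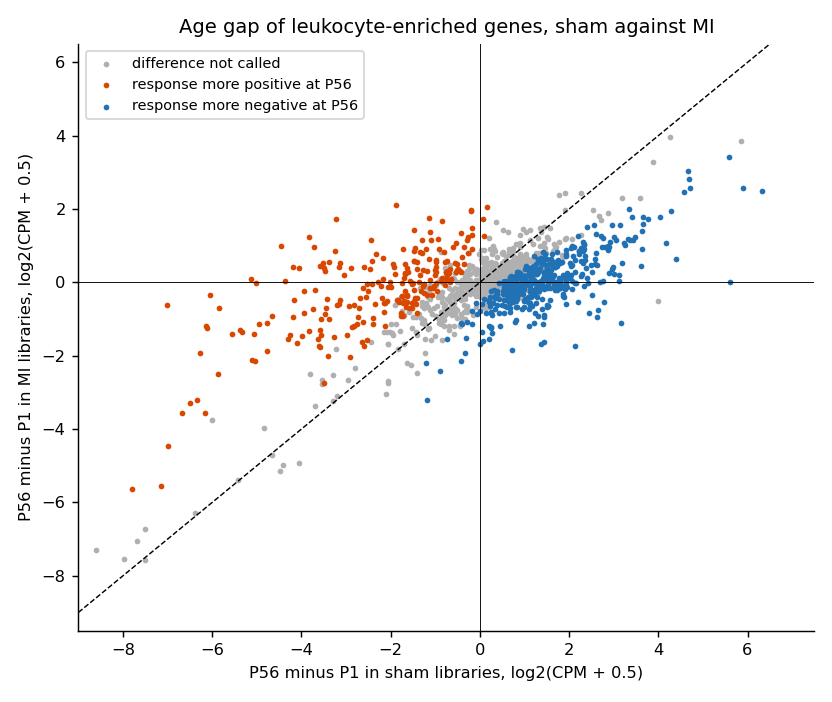
Adult minus neonatal gap in sham (x axis) and in MI libraries (y axis), in log2(CPM + 0.5), for the 1242 leukocyte-enriched genes. Genes whose response differed lie closer to 0 on the MI axis than on the sham axis in most cases.

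Most genes of injury-associated macrophages had a more positive response in the adult libraries. Of 15 such genes, 10 had a more positive response at P56 and 0 a more negative one, with a median difference of 2.27 against 0.02 over all genes. In MI, 12 of the 15 were higher and 1 lower at P1, and 13 higher and 2 lower at P56. Under marker scaling 6 were higher and 5 lower at P1, and 12 higher and 2 lower at P56. Of the 15, 8 were leukocyte-enriched, and 6 of these were more positive. Fn1 and Thbs1, which were not leukocyte-enriched, were on this list and on the matrix list below. Spp1, which encodes the secreted matrix protein osteopontin (chromosome 5, 104435118 to 104441050), was at 2848, 403, 882 and 1771 CPM in neonatal sham and 6082, 11884, 3701 and 8231 in neonatal MI. In the adult it went from 5.59, 16.1, 12.1 and 4.52 CPM in sham to 4684, 2561, 5664 and 6000.5 in MI. The MI groups of the 2 ages overlapped, and adult sham lay below every other library. Its response was 2.56 log2 units at P1 and 8.97 at P56, a difference of 6.41 ± 0.76 (SE; limma adjusted p = 1.26e-05).

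Arg1, the arginase of wound macrophages (chromosome 10, 24915208 to 24927470), was also lowest in adult sham. It was at 74.9, 58.1, 22.5 and 27.2 CPM in neonatal sham, 321, 522, 262 and 768 in neonatal MI, 1.12, 1.61, 1.51 and 1.21 in adult sham and 951, 815, 562 and 1226 in adult MI. MI exceeded sham in every library at both ages, with a difference of 5.46 ± 0.52 (SE; limma adjusted p = 1.91e-06) between the responses. The transmembrane glycoprotein Gpnmb (4.09 ± 0.79), the fatty acid carrier Fabp5 (3.95 ± 0.29), galectin 3, encoded by Lgals3 (2.27 ± 0.46), the haem-degrading enzyme Hmox1 (1.86 ± 0.39) and the tetraspanin Cd9 (1.37 ± 0.31) were also called. Trem2, a lipid receptor of phagocytes, did not differ beyond its error: it was at 66.6, 46.8, 49.2 and 60 CPM in neonatal sham, 176, 244, 173 and 209.8 in neonatal MI, 28.7, 83.7, 45.8 and 66.5 in adult sham and 107, 178, 179 and 184 in adult MI, a difference of -0.25 ± 0.37 (SE; limma adjusted p = 0.614). The 95% interval of that difference was -1.03 to 0.54.

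Classical monocyte markers showed a more positive adult response in 7 of 10 genes and a more negative one in 1, with a median difference of 2.56. Of the 10, 7 were leukocyte-enriched, with 4 more positive and 1 more negative. Chil3, a chitinase-like protein of monocytes, was at 9.18, 17.6, 9.47 and 24.7 CPM in neonatal sham, 60.5, 31.2, 45.6 and 85.6 in neonatal MI, 1.06, 1.06, 2.08 and 0.388 in adult sham and 227, 95.2, 59.9 and 692 in adult MI, with a difference of 4.96 ± 0.83 (SE; limma adjusted p = 0.000231). Adult MI replicate 4 was the highest and adult sham lay under all other groups; without that replicate the Chil3 difference was 4.29. Plac8 had a difference of 2.99 ± 0.39. The surface antigen Ly6c2 (2.13 ± 0.42) was the single more positive gene of the 15 general monocyte and macrophage markers, of which 9 were more negative (median -1.11). Ccr2, the receptor that draws monocytes out of the bone marrow, rose at both ages, from 36.4–64.7 to 218–283 CPM at P1 and from 106–233 to 648–806 at P56, a difference of 0.13 ± 0.32 (SE; limma adjusted p = 0.769) with a 95% interval of -0.54 to 0.79. The level of Ccr2 was higher in each adult MI library than in any neonatal one.

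**Figure D4:**
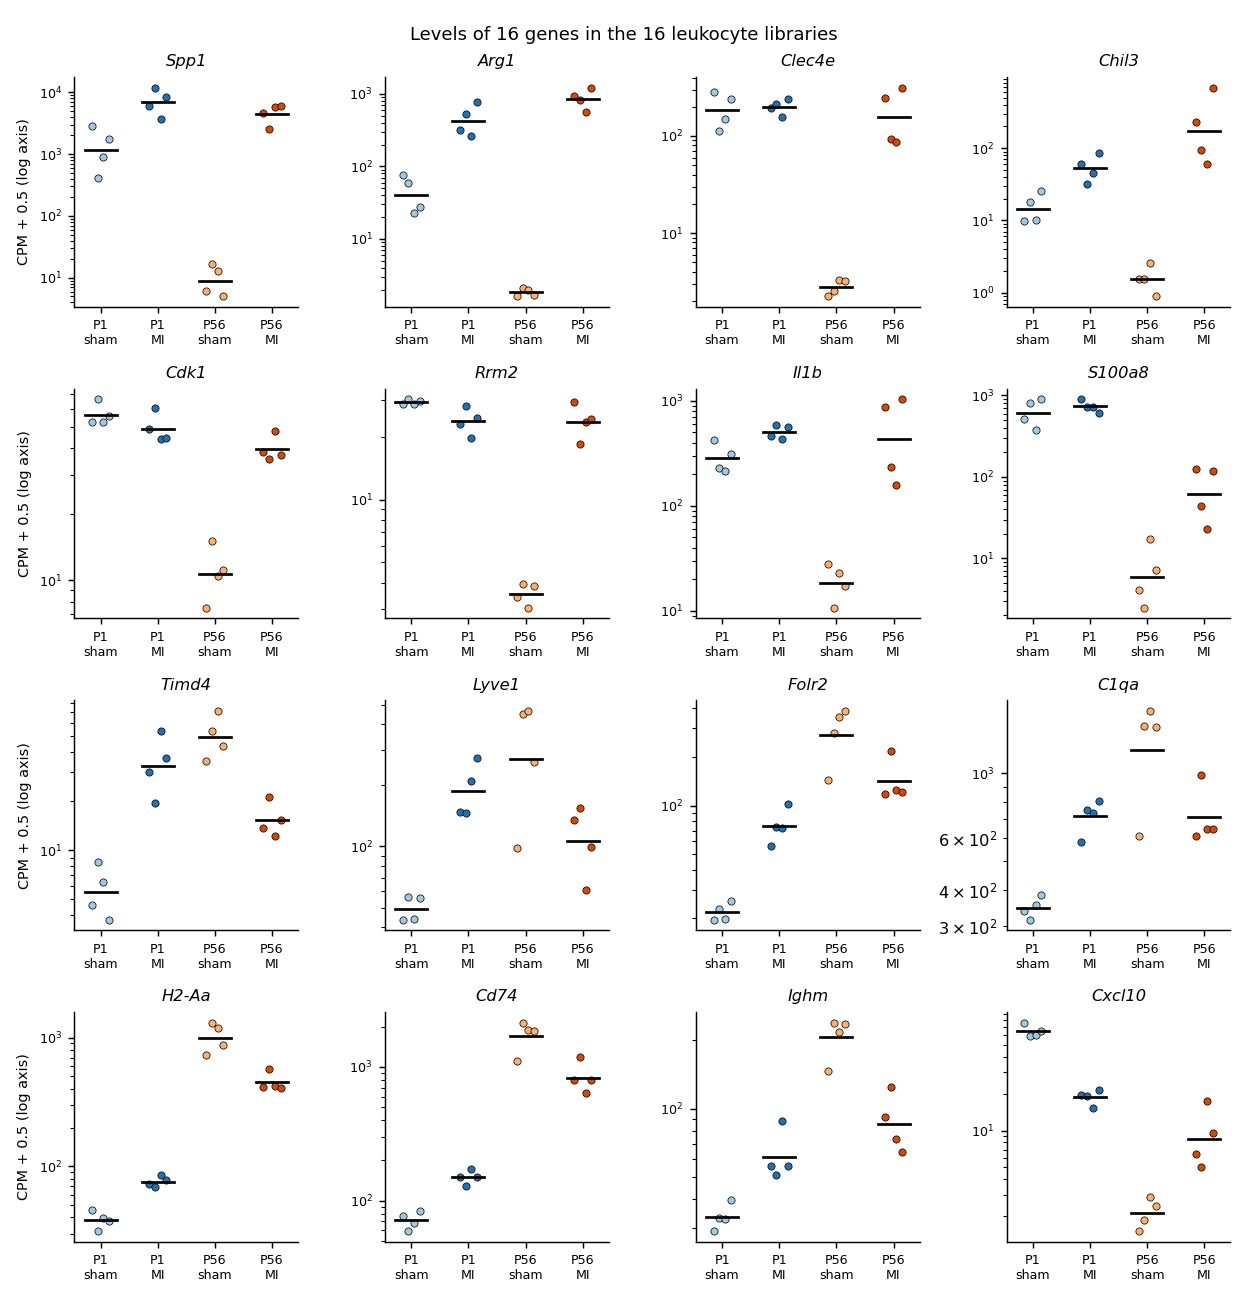
CPM + 0.5 (log axis) of 16 genes in every leukocyte library; points are libraries and bars are means on the log scale. For Spp1, Arg1, Clec4e, Chil3, Cdk1, Rrm2 and Il1b every adult sham library lies below the other 12, and for H2-Aa every adult sham library lies above the other 12.

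Several neutrophil genes had a more positive response in the adult, and some granule genes were near 0 in adult hearts. Of 15 markers tested, 8 had a more positive response at P56 and none a more negative one (median 2.13). S100a8, a subunit of the calprotectin complex, was at 513, 808, 373 and 895 CPM in neonatal sham and 898, 730.4, 719.8 and 609 in neonatal MI, against 3.63, 1.97, 16.6 and 6.77 in adult sham and 123, 43.5, 22.6 and 117 in adult MI. The neonatal groups overlapped and lay above every adult library, and the difference was 3.12 ± 0.78 (SE; limma adjusted p = 0.00431). The chemokine receptor Cxcr2 (4.02 ± 0.73), the collagenase Mmp8 (4.17 ± 0.50) and the interleukin 1 decoy receptor Il1r2 (4.61 ± 0.81) were called as well. Of the granule genes of maturing neutrophils, Ngp was at 156–294 and 144–202 CPM in neonatal sham and MI but at 0.447–1.59 and 0.182–0.646 in adult sham and MI, and lactoferrin, encoded by Ltf, at 269–535 and 252–338 against 0.0886–2.46 and 0.401–3.46. Their differences of -0.05 ± 0.37 and 1.30 ± 0.71 did not pass the test, but that of Ltf did without adult sham replicate 4 (1.81, limma adjusted p 0.0226). Erythroid markers, which mark red cell precursors, summed to 529–787 CPM in neonatal sham, 58–114 in neonatal MI, 4.31–39 in adult sham and 23.2–28.4 in adult MI. All 6 tested had a more positive response at P56, and their median difference of 2.80 was the highest of any list. The part of red cell precursors in the neutrophil values was not tested.

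Clec4e, a receptor that senses dead cells and is also known as Mincle (chromosome 6, 123281789 to 123289870), had the most positive difference after Spp1 among leukocyte-enriched genes above 5 CPM. It was at 286, 111, 151 and 239 CPM in neonatal sham and 195, 214, 156 and 242 in neonatal MI, groups that overlapped. In the adult it was at 1.73, 2.05, 2.75 and 2.67 CPM in sham and 245, 92.6, 85.4 and 315 in MI, so that only adult sham was low, and the difference was 5.72 ± 0.52 (SE; limma adjusted p = 1.39e-06). The same pattern held for Trem1, a receptor that amplifies inflammation (4.86 ± 0.60), the Schlafen gene Slfn4 (5.22 ± 0.56) and the cystine transporter Slc7a11 (4.95 ± 0.55). The acute phase protein Saa3 rose at both ages, from 10.5–18.4 to 72.3–157 CPM at P1 and from 0.28–0.905 to 132–344 at P56, with a difference of 5.07 ± 0.44 (SE; limma adjusted p = 1.03e-06).

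Inflammatory cytokines followed. Of 24 tested, 12 had a more positive and 3 a more negative response at P56 (median 1.30). Il1b, the secreted alarm cytokine interleukin 1 beta, was at 426, 231, 214 and 312 CPM in neonatal sham, 462, 592, 433 and 566 in neonatal MI, 27.3, 10.2, 22.3 and 16.6 in adult sham and 876, 236, 158 and 1032 in adult MI. Its neonatal response of 0.84 log2 units did not pass the test, its adult response of 4.54 did, and the difference was 3.70 ± 0.68 (SE; limma adjusted p = 0.000495). Its natural antagonist Il1rn (3.68 ± 0.58), Il1a (3.12 ± 0.44), Tnf (2.76 ± 0.52) and oncostatin M, encoded by Osm (2.77 ± 0.47), were called in the same direction.

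Il6 and Il10 took opposite directions at the 2 ages. Il6, an inducer of the acute phase response, was at 79, 66.6, 79.3 and 76.3 CPM in neonatal sham and 23.8, 23.1, 28.2 and 21 in neonatal MI, then 0.447, 0.0787, 0.0443 and 0.0862 in adult sham and 7.57, 9.09, 7.19 and 10.3 in adult MI. No library of one group overlapped another, and the order was neonatal sham, neonatal MI, adult MI and adult sham; the difference was 5.42 ± 0.24 (SE; limma adjusted p = 1.65e-09). Il10, which damps macrophage activation, was at 15.4–31.7 CPM in neonatal sham, 8.47–16.1 in neonatal MI, 0.447–1.64 in adult sham and 3.21–4.6 in adult MI (2.46 ± 0.38). Under marker scaling both were still called lower in neonatal MI, Il6 was still called higher in adult MI, and the adult rise of Il10 was not (0.50 log2 units). Il6 was not leukocyte-enriched.

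Chemokines were split. Of 24 tested, 8 were more positive and 2 more negative at P56 (median 0.78). Those that attract neutrophils led: Cxcl1 (4.09 ± 0.52), Cxcl2 (3.98 ± 0.60) and Cxcl3 (5.15 ± 0.75), of which Cxcl2 went from 538–1027 to 595–806 CPM at P1 and from 10–29.8 to 121–517 at P56. The monocyte attractant Ccl2 was called (1.93 ± 0.51 (SE; limma adjusted p = 0.00615)) and its neighbour Ccl7 was not (1.06 ± 0.52 (SE; limma adjusted p = 0.109)), except under marker scaling (1.17, limma adjusted p 0.0224). Cxcl10, induced by interferon, fell at P1 from 75.7, 59.2, 60 and 64.2 to 19.1, 18.8, 14.7 and 20.9 CPM and rose at P56 from 1.01, 1.38, 2.35 and 1.94 to 5.9, 4.52, 16.9 and 9.05. Its difference was 3.82 ± 0.41 (SE; limma adjusted p = 5.61e-06), and sham and MI did not overlap at either age. Ccl24, which attracts eosinophils, went the other way, from 12.3, 10.5, 12.3 and 21 to 50.2, 58.5, 55.7 and 107 CPM at P1 and from 64.2, 119, 97.7 and 117 to 39.5, 63.2, 18.8 and 83 at P56, a difference of -3.32 ± 0.52 (SE; limma adjusted p = 0.000147). Adult sham and MI overlapped for Ccl24. Of 15 chemokine receptors 4 were more positive and 4 more negative, shares close to the 23.7% and 21.5% of all genes.

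Genes that build and cut the extracellular matrix mostly had a more positive response in the adult libraries. Of 21 genes of matrix degradation, 15 were more positive and 2 more negative at P56 (median 2.26). Of these 21, 9 were leukocyte-enriched, with 6 more positive and 1 more negative. Of 21 matrix genes 18 were more positive and none more negative (median 2.10). The protease inhibitor Timp1 was at 11.7, 11.6, 12.3 and 8.53 CPM in neonatal sham, 19.6, 20.5, 8.4 and 15.3 in neonatal MI, 0.391, 1.26, 1.42 and 0.689 in adult sham and 85.7, 67.6, 68.1 and 58.5 in adult MI, with a difference of 5.22 ± 0.38 (SE; limma adjusted p = 2.66e-07). The highest level was in adult MI, with no overlap with any other group. The membrane protease Mmp14 (3.16 ± 0.27) and fibronectin, encoded by Fn1 (4.23 ± 0.35), rose strongly in the adult, Fn1 from 48.9–97.6 to 3803–5496 CPM against 675–1548 to 2967–3902 at P1.

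Tenascin C, encoded by Tnc, had the most positive difference among the genes above 5 CPM. It was at 182, 201, 189 and 164 CPM in neonatal sham and 126, 128, 69.5 and 64.2 in neonatal MI, and at 1.12, 3.54, 4.39 and 2.07 in adult sham and 203, 161, 315 and 99.4 in adult MI. The 2 MI groups overlapped while the 2 sham groups lay far apart, and the difference was 6.89 ± 0.50 (SE; limma adjusted p = 2.66e-07). The matrix protein Thbs1 (6.00 ± 0.44) and periostin, encoded by Postn (4.08 ± 0.57), shared the pattern. None of the 21 matrix genes was leukocyte-enriched. Fibroblast markers, of which 6 of 13 were more positive and 1 more negative, summed to 3756–6125 CPM in neonatal sham, 4595–7981 in neonatal MI, 579–1786 in adult sham and 2395–7386 in adult MI, and their part in the matrix values was not tested. The same holds for Selp, the platelet and endothelial P-selectin (5.81 ± 0.49), which fell from 62.7–101 to 5.86–18.4 CPM at P1 as endothelial markers did, and rose from 0.0559–0.443 to 2.7–9.66 at P56.

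Cell cycle genes had a more positive response in the adult. Of 25 genes of G2 and M phase 23 were more positive at P56 and none more negative (median 1.83), and of 25 DNA replication genes 24 and none (median 1.68). At P1 0 of the 25 G2 and M phase genes were called higher and 0 lower, and at P56 23 rose; under marker scaling 25 were lower at P1, and 21 were higher and 3 lower at P56. DNA replication genes higher at P56 numbered 25, and 13 under marker scaling. None of the genes on either list was leukocyte-enriched. Cdk1, the kinase that starts mitosis, was at 52.1, 66.1, 52 and 55.4 CPM in neonatal sham, 48, 60, 43.6 and 43.9 in neonatal MI, 6.99, 14.7, 10 and 10.6 in adult sham and 37.9, 35.2, 47.2 and 36.7 in adult MI. Adult sham alone was low, and the difference was 2.09 ± 0.24 (SE; limma adjusted p = 1.13e-05). Rrm2, a subunit of the enzyme that makes DNA building blocks, was at 28.1, 29.8, 28.4 and 29.3 CPM, 22.6, 27.5, 19.2 and 24.1 CPM, 2.91, 3.42, 2.53 and 3.36 CPM and 28.9, 18, 23.2 and 23.8 CPM in the same order, and its difference of 3.05 ± 0.20 (SE; limma adjusted p = 1.14e-07) again had adult sham as the low group. The mitotic kinase Aurka (1.79 ± 0.20), the proliferation marker Mki67 (1.98 ± 0.29), the helicase subunit Mcm5 (2.21 ± 0.26) and the methylation adaptor Uhrf1 (2.62 ± 0.24) were called too.

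Promoters of 2 such kinases and of Uhrf1 are shown since cell cycle genes are known for shared elements near their starts. They were picked among called genes whose windows held the motifs marked, so the presence of a match in each was fixed by the choice. The windows run from 250 bases before to 50 bases after the start, from RefSeq on GRCm38.p6, 5′ to 3′ on the strand of the gene. Capitals mark, on either strand, the cell cycle homology region TTTGAA and the CCAAT box in the first pair, and the E2F motif TTTNNCGC in Uhrf1.
Cdk1, chr10:69352863-69353162, minus strand: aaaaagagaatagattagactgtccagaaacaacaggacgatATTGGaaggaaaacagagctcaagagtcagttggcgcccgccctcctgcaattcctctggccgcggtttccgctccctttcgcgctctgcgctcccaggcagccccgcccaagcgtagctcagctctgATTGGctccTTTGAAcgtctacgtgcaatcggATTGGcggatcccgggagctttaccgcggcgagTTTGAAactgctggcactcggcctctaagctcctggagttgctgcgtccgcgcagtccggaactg
Aurka, chr2:172370521-172370820, minus strand: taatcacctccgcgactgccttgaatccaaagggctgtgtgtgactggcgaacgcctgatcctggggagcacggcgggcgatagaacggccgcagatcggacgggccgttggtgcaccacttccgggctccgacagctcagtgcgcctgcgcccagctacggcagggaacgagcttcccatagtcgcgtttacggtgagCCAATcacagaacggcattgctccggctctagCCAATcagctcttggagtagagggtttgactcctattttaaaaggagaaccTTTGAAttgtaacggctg
Uhrf1, chr17:56303087-56303386, plus strand: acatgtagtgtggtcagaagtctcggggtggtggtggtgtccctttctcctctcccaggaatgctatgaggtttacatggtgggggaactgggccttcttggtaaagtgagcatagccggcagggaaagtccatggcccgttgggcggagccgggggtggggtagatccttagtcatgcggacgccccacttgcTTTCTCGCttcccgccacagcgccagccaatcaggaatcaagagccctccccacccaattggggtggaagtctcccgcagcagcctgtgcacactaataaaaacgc
The Cdk1 window held 2 matches to TTTGAA and 3 to CCAAT, the Aurka window 1 and 2, and the Uhrf1 window 1 to TTTNNCGC. Of 20 G2 and M phase genes with a window in the RefSeq table, 15 (75%) held TTTGAA, against 12.1% of the windows of 10872 tested genes, and 18 (90%) held CCAAT against 38%. Of 19 DNA replication genes, 11 (57.9%) held TTTNNCGC against 8.07%. CCAAT was also in 13 of these 19 windows (68.4%), in 6 of 8 class II windows (75%) and in 7 of 14 resident macrophage windows (50%). A match is a description of the letters and not a measured binding site.

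**Figure D5:**
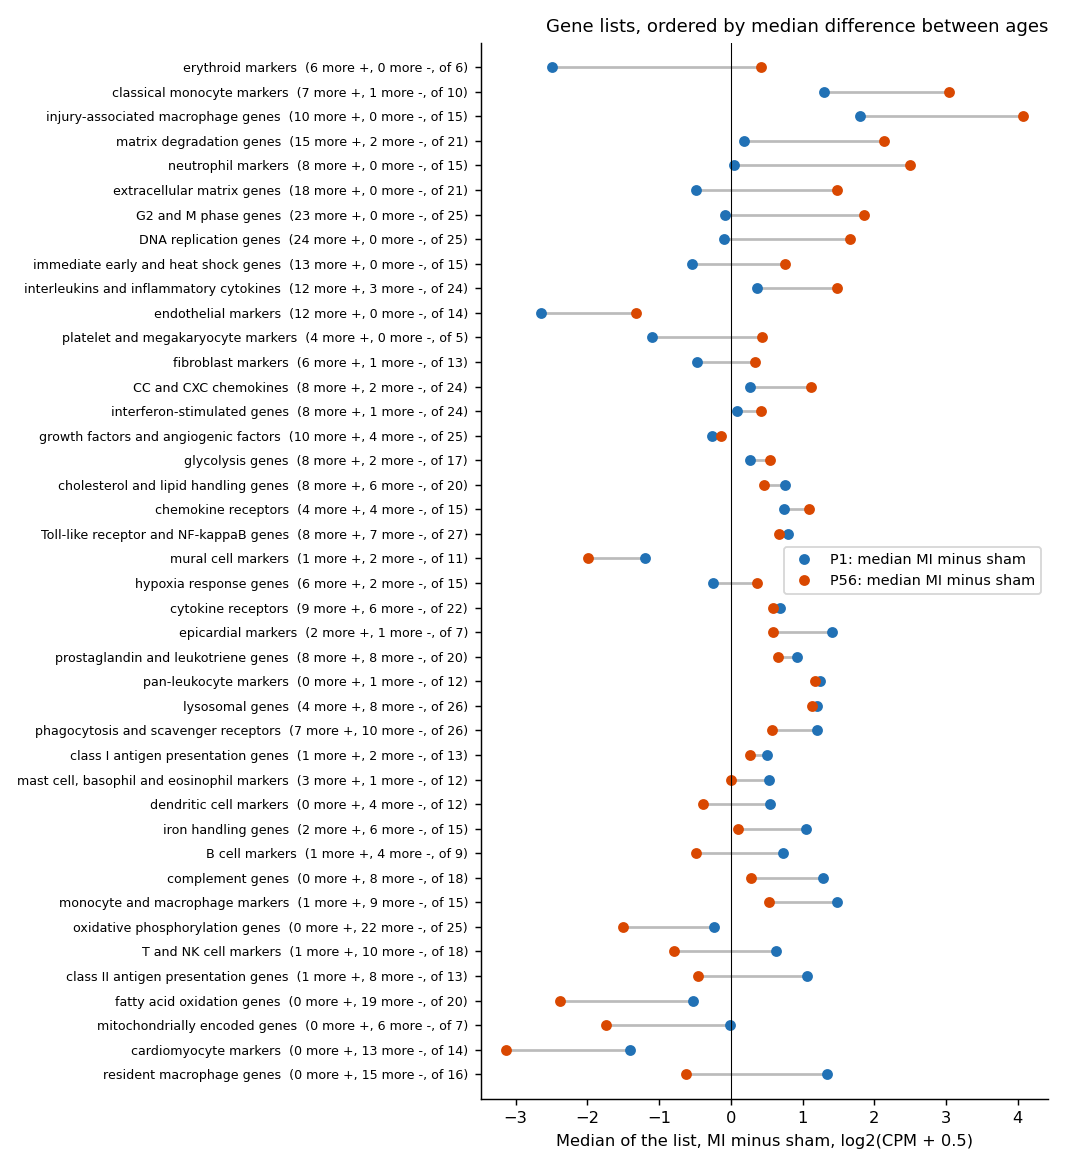
Median MI minus sham change of each gene list at P1 (blue) and P56 (orange) in log2(CPM + 0.5), ordered by median difference, with the number of genes more positive, more negative and tested beside each name. Erythroid markers lie at the very top, followed by monocyte, injury macrophage, matrix, neutrophil and cell cycle lists. Resident macrophage, cardiomyocyte, mitochondrially encoded and fatty acid oxidation lists lie at the bottom.

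Resident macrophage genes showed the reverse. Of 16 genes, 15 had a more negative response at P56 and none a more positive one, with a median difference of -1.94. In MI, 15 of them were higher at P1 and 9 lower at P56; under marker scaling 2 were higher and 4 lower at P1 and 16 lower at P56. Timd4, a receptor for dying cells and a mark of resident macrophages (chromosome 11, 46810800 to 46844332), was at 4.08, 8, 5.92 and 3.25 CPM in neonatal sham and 29.6, 19, 53.4 and 36.3 in neonatal MI. It was at 34.9, 53.5, 71 and 43.1 CPM in adult sham and 13.1, 20.8, 11.7 and 14.9 in adult MI. Sham and MI did not overlap at either age and moved in opposite directions, with a difference of -4.26 ± 0.43 (SE; limma adjusted p = 3.22e-06).

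Lyve1, a hyaluronan receptor, was at 43.1, 56.1, 43.2 and 55 CPM in neonatal sham, 148, 146, 211 and 273 in neonatal MI, 97.5, 448, 465 and 261 in adult sham and 135, 153, 60.7 and 98.9 in adult MI. The adult groups overlapped through sham replicate 1, and the difference was -3.28 ± 0.57 (SE; limma adjusted p = 0.000305). The folate receptor Folr2 (-2.73 ± 0.38), the haemoglobin receptor Cd163 (-2.09 ± 0.48), the mannose receptor Mrc1 (-1.38 ± 0.32), the complement receptor Vsig4 (-1.76 ± 0.33) and the scavenger receptor Stab1 (-1.47 ± 0.34) differed in the same direction. Csf1r, the growth factor receptor on which macrophages depend, rose at P1 from 609–761 to 1319.5–1664 CPM and fell at P56 from 1126–1926 to 973–1582, ranges that overlapped in the adult, with a difference of -1.68 ± 0.27 (SE; limma adjusted p = 0.000195). Under marker scaling its rise at P1 was not called (-0.13 log2 units) and its fall at P56 was (-1.70). The endosomal glycoprotein Cd68, one of the general monocyte and macrophage markers, had a difference of -0.21 ± 0.33 (SE; limma adjusted p = 0.637), with a 95% interval of -0.90 to 0.49.

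Retnla, a secreted resistin-like protein, had the most negative difference among the leukocyte-enriched genes above 5 CPM. It was at 0.117, 0.126, 0 and 0 CPM in neonatal sham, 3.36, 1.31, 1.41 and 50.6 in neonatal MI, 17.4, 30, 22.2 and 43.5 in adult sham and 3.3, 16.6, 1.6 and 4.72 in adult MI. Neonatal MI replicate 4 was far above the other 3 of its group, and the difference was -5.59 ± 1.16 (SE; limma adjusted p = 0.00123); without that library the Retnla difference was -4.48 (limma adjusted p 0.000231). The phospholipase Pla2g2d was at 31.7–61 CPM in adult sham and 2.28–7.67 in adult MI but at no more than 0.308 CPM in any neonatal library, and its difference was -3.83 ± 0.41 (SE; limma adjusted p = 5.77e-06). The lectin Mgl2 (-3.32 ± 0.58), Cd163l1 (-3.87 ± 0.56) and Chp2 (-3.75 ± 0.41) were more negative as well.

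Complement genes were more negative at P56 in 8 of 18 and more positive in none (median -1.03). Under marker scaling 5 were more negative and 1 more positive. Of the 18, 9 were leukocyte-enriched, and 3 of these were more negative, against 34.3% of all leukocyte-enriched genes. C1qa was among the 3 and C4b was not leukocyte-enriched. C1qa, part of the molecule that starts the classical pathway, was at 338, 315, 354 and 383 CPM in neonatal sham, 581, 751, 731 and 805 in neonatal MI, 608, 1446, 1634 and 1440.5 in adult sham and 607, 986, 646 and 645 in adult MI, with a difference of -1.80 ± 0.35 (SE; limma adjusted p = 0.000837). Adult sham replicate 1 lay with the adult MI libraries and the other 3 above them. C4b, which carries the pathway on, was 8.9–14.6 and 62.9–147 CPM at P1 and 88.9–481 and 113–264 at P56 (-3.43 ± 0.61). With the libraries scaled as deposited, lysosomal genes rose together at both ages, 24 of 26 at P1 and 23 at P56. Under marker scaling 2 were higher and 6 lower at P1, and 6 were higher and 9 lower at P56. Of the 26, 4 differed in the positive and 8 in the negative direction (3 under marker scaling). Phagocytosis and scavenger receptors divided into 7 more positive and 10 more negative of 26, and iron handling genes into 2 and 6 of 15. The counts of these lists and of the lysosomal list are to be read against 23.7% and 21.5% of all genes. Among leukocyte-enriched genes the shares were 18.4% and 34.3%. Marco, a scavenger receptor for bacteria and debris, was among the positive ones (2.10 ± 0.58), and the cholesterol carrier Apoe, in the lipid list, was negative (-2.38 ± 0.62 (SE; limma adjusted p = 0.00565)).

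Class II molecules show peptides to helper T cells, and their genes had a more negative response in the adult. Of 13 class II genes, 8 had a more negative response at P56 and 1 a more positive one (median -1.63), and at P56 5 fell in the main fit and 9 under marker scaling. H2-Aa, a class II chain (chromosome 17, 34282744 to 34287827), was at 45, 30.7, 39.1 and 36.9 CPM in neonatal sham, 72.3, 68.2, 84.7 and 77.2 in neonatal MI, 732, 1307, 1189.5 and 875 in adult sham and 414, 571, 417 and 407 in adult MI. All 4 groups were apart, every adult library lay above every neonatal one, and the difference was -2.15 ± 0.24 (SE; limma adjusted p = 8.11e-06). The invariant chain Cd74 (-2.11 ± 0.29), H2-Ab1 (-1.87 ± 0.27) and the class II activator Ciita (-1.63 ± 0.30) moved with it. At P1, 8 class II genes rose and 1 fell, while under marker scaling 0 rose and 4 fell. H2-Eb1 was at 11.6, 473, 338 and 723 CPM in adult sham, with replicate 1 far below the rest, and its difference of -1.30 ± 1.21 (SE; limma adjusted p = 0.401) did not pass the test; without that library it was -2.64 with a limma adjusted p of 9.4e-05. For class I genes, 1 was more positive and 2 more negative of 13 (median -0.41). Dendritic cell markers were more negative in 4 of 12 and more positive in none, a negative share close to the 34.3% of all leukocyte-enriched genes.

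T and NK cell markers had a more negative response at P56 in 10 of 18 and a more positive one in 1 (median -1.19); with a filter of 5 CPM, which leaves few of them, 1 was called each way and the median was 0.24. Il2rb, a subunit of the interleukin 2 receptor, was at 1.75, 1.17, 1.3 and 2.36 CPM in neonatal sham, 9.88, 6.7, 8.31 and 7.21 in neonatal MI, 10.8, 22.3, 9.44 and 11.5 in adult sham and 3.87, 6.51, 4.6 and 3.5 in adult MI. Its groups did not overlap at either age, and the difference was -3.41 ± 0.35 (SE; limma adjusted p = 3.97e-06). Cd3g, of the T cell receptor complex, was at 0.335–3.5 and 1.1–3.83 CPM at P1 and 2.97–4.44 and 0.766–2.02 at P56 (-2.18 ± 0.58 (SE; limma adjusted p = 0.00612)), whereas Cd3e was not called (-0.46 ± 0.33 (SE; limma adjusted p = 0.267)).

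B cell markers were more negative in 4 of 9 and more positive in 1. Of the 9, 6 were leukocyte-enriched, and 3 of these were more negative, against 34.3% of all leukocyte-enriched genes. Ighm, the immunoglobulin M heavy chain, was at 28.5, 32.5, 32.2 and 39.2 CPM in neonatal sham, 55.3, 50.8, 87.6 and 55.3 in neonatal MI, 146, 238, 217 and 234 in adult sham and 91.1, 124, 73.2 and 64.3 in adult MI, with no overlap of sham and MI at either age and a difference of -2.14 ± 0.30 (SE; limma adjusted p = 5.28e-05). Of 12 mast cell, basophil and eosinophil markers tested, 3 were more positive and 1 more negative (median -0.42). The share of more positive markers was close to the 23.7% of all genes. Among the positive ones the eosinophil receptor Siglecf was at 3.38, 2.39, 0.994 and 1.68 CPM and 7.72, 10.7, 6.46 and 8.16 CPM in neonatal sham and MI, and at 0.503, 0.865, 0.31 and 0.388 CPM and 28.5, 17.7, 8.83 and 28.2 CPM in adult sham and MI, a difference of 2.47 ± 0.48 (SE; limma adjusted p = 0.000711). Ccr3, the eotaxin receptor, gave 2.16 ± 0.46 (SE; limma adjusted p = 0.00144). The mast cell protease Cpa3 did not pass the test (-0.88 ± 0.68).

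Interferon-stimulated genes were more positive at P56 in 8 of 24 and more negative in 1 (median 0.74), against 23.7% and 21.5% of all genes. At P56 8 were called higher and 0 lower in MI, and under marker scaling 0 higher and 12 lower. Of the 24, 5 were leukocyte-enriched, with 0 more positive and 1 more negative. Isg15 and Rsad2 were not among these 5. Isg15, a small protein attached to others in antiviral defence, was at 5.6, 6.57, 8.13 and 10.1 CPM in neonatal sham, 3.32, 3.46, 3.47 and 3.21 in neonatal MI, 0.559, 1.53, 2.97 and 2.15 in adult sham and 4.57, 3.75, 9.05 and 3.89 in adult MI (2.41 ± 0.44 (SE; limma adjusted p = 0.000488)). Rsad2, an antiviral enzyme, was highest in adult MI replicate 3, at 102 CPM against 25.2, 18.8 and 31.3 in the other 3, and its difference was 2.03 ± 0.53 (SE; limma adjusted p = 0.00599). Ifit1 (0.96 ± 0.46) and Ifit3 (-0.66 ± 0.65) did not pass the test, but without adult sham replicate 4 Ifit1 did (1.18, limma adjusted p 0.0444), and without adult MI replicate 3 Ifit3 did in the negative direction (-1.24, limma adjusted p 0.0364). Immediate early and heat shock genes, which respond within minutes to handling as well as to injury, were more positive in 13 of 15 and more negative in none (median 1.54). The stress factor Atf3 was at 688–773 and 426–580.1 CPM at P1 and at 33.7–83.3 and 150.5–298 at P56, a difference of 2.30 ± 0.34 (SE; limma adjusted p = 9.29e-05). The neonatal and adult hearts were dissociated by different protocols, and the part of dissociation in these genes was not tested.

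Cyp1a1, a target of the aryl hydrocarbon receptor, was above the floor of 3 reads in a single group. It was at 11.8, 25.6, 14.3 and 16.6 CPM in neonatal sham, at 0.125, 0, 0 and 0 in neonatal MI, and at no more than 0.0443 CPM in any adult library. Cyp1a1 passed the filter only through the neonatal sham libraries. Its change was -5.00 log2 units at P1 and -0.005 at P56, where both groups lay under the floor. The difference of 4.99 ± 0.26 (SE) therefore restates the neonatal fall and says nothing of an adult response.

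Energy metabolism genes fell more in the adult. Of 25 oxidative phosphorylation genes 22 were more negative at P56 and none more positive (median -1.17), and of 20 fatty acid oxidation genes 19 and none (median -1.67). Under marker scaling 10 and 13 were. Cardiomyocyte markers moved with them, 13 of 14 more negative (median -1.74) and 5 under marker scaling, among them the motor protein Myh6 at 12963–33874 CPM in adult sham and 826–2266 in adult MI against 3332–4812 and 856–2509 at P1 (-2.06 ± 0.57). Oxidative phosphorylation genes summed to 6835–16828 CPM in adult sham and 2788–3822 in adult MI, and none of them was leukocyte-enriched; the part of cardiomyocyte RNA in their values was not tested. Of the genes outside the leukocyte-enriched set with the most negative differences, Bdh1 (-3.91 ± 0.53), Kcnj3 (-3.77 ± 0.69) and Scn4b (-3.66 ± 0.46) were likewise high in adult sham replicate 1, at 157, 104 and 111 CPM. The endothelial list was more positive at P56 in 12 of 14: its median change was -2.64 log2 units at P1 against -1.33 at P56, and 14 and 12 of its genes fell at P1 and P56 (14 and 14 under marker scaling). Cdh5, the adhesion protein of endothelial junctions, went from 719–851 to 69–143 CPM at P1 and from 44.4–62.1 to 17.7–24.9 at P56 (1.72 ± 0.29).

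The remaining lists held genes of both directions, to be read against 23.7% and 21.5% of all genes. Cytokine receptors had 9 more positive and 6 more negative genes of 22, Toll-like receptor and NF-kappaB genes 8 and 7 of 27, and growth factors 10 and 4 of 25. Among growth factors the survival factor Igf1, also on the resident macrophage list, was not leukocyte-enriched. It rose at P1 from 93.2, 84.5, 94.1 and 99.5 to 149, 146, 159.6 and 154 CPM. At P56 Igf1 fell from 89.2, 176, 185 and 182 to 55.4, 101, 86.1 and 45.7 CPM, a difference of -1.85 ± 0.33 (SE; limma adjusted p = 0.000425). Under marker scaling it was lower at P1 as well (-0.57 log2 units). Adult sham replicate 1 lay among the adult MI libraries. Tgfb1, the main signal for scar formation, had a difference of 0.71 ± 0.22 (SE; limma adjusted p = 0.0153), with a change of 0.57 log2 units at P1 and 1.28 at P56 that became -0.71 and 0.12 under marker scaling. Prostaglandin and leukotriene genes divided into 8 and 8 of 20. Ptgs2, the inducible enzyme of prostaglandin synthesis, was at 171, 96.9, 122 and 152 CPM in neonatal sham, 127, 146, 88.5 and 123 in neonatal MI, 0.951, 0.708, 1.59 and 0.776 in adult sham and 155, 17.7, 48.8 and 242 in adult MI (5.85 ± 0.78 (SE; limma adjusted p = 3.47e-05)). Adult sham was below all other libraries, and adult MI replicates 2 and 3 were below every neonatal one. Alox15, a lipoxygenase of eosinophils and macrophages, rose at both ages, from 1.46–2.12 to 11.4–30 CPM at P1 and from 0.447–0.669 to 12.3–55.1 at P56 (2.11 ± 0.52). Lipid handling genes had 8 more positive and 6 more negative of 20, glycolysis genes 8 and 2 of 17, and hypoxia response genes 6 and 2 of 15.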

How the data were processed

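Ribosomal RNA was depleted and stranded total RNA libraries were read as 50-base single ends, per the labels' protocols. Trimmomatic, STAR, HTSeq and edgeR are named with GRCm38 (mm10) and GRCh38, without their roles, per the submitters' processing notes. The deposited table holds one normalised signal per gene and library, which the authors call CPM and which sums to 792525 to 1380750 per leukocyte library. Every value was a whole multiple (100%, within 0.01 reads) of the worth of 1 read, 0.0365 to 0.112 CPM, so the reads could be recovered; 3 reads, the floor, are 0.109 to 0.337 CPM.

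Genes with at least 1 CPM in at least 4 of the 16 libraries were fitted as log2(CPM + 0.5) with limma 3.58.1 in R 4.3.3, with a mean-variance trend and a mean per group. P-values were adjusted by Benjamini-Hochberg over all 16239 genes and called under 0.05. A difference on this scale understates the change of genes near 0. The SE is that of the fit. Nothing says that the 4 samples of a group came from separate litters, so p-values measure only the spread between these samples. No 2 replicates were identical. Alternatives were edgeR 4.0.16 (quasi-likelihood) and DESeq2 1.42.0 on the recovered reads, other pseudocounts, filters and scalings, a fold of at least 2, a replicate block and each library left out. The fit was tested on simulated counts first.

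The comparison, the 43 gene lists and the rule for named genes were chosen with earlier results of these data known. Of 691 listed genes 664 were tested, 12 were below the filter and 15 not in the table. Named genes were the 8 most positive and 8 most negative differences above 5 CPM, up to 10 each way among leukocyte-enriched genes, up to 6 each way with opposite responses, up to 5 per list, and Ptprc; other genes were chosen after their values were seen. No source used here says whether counting used strand, so overlapping genes may share reads.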

Additional observations from a re-analysis of the deposited data

Results flagged for a closer look

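For 102 genes of the text the highest or lowest library of each group of 4 was set against the other 3 on the log2(CPM + 0.5) scale, and in 33 of 408 groups it lay farther off than Dixon's 95% value allows. That is 8.09%, where chance flags about 5%. Adult sham replicate 1 held 11 of them. It had Apoe at 2096 CPM against 5353 to 5916, C1qa at 608 CPM against 1440.5 to 1634 and Ccl2 at 19.1 CPM against 65.6 to 77.8. It also had Ccl7 at 14.2 CPM against 49.4 to 61.7, Cd68 at 90.2 CPM against 183 to 193 and Csf1r at 1126 CPM against 1780.2 to 1926. Its others included Hmox1 at 45.6 CPM against 100.1 to 102, Igf1 at 89.2 CPM against 176 to 185 and Il6 at 0.447 CPM against 0.0443 to 0.0862. Then came Mrc1 at 1415 CPM against 2503 to 2758 and Tgfb1 at 27.1 CPM against 34.2 to 35.3. Adult MI replicate 2 held 7 of them. It had C1qa at 986 CPM against 607 to 646, Chp2 at 23 CPM against 7.95 to 9.02 and Folr2 at 218 CPM against 118 to 125. It also had H2-Aa at 571 CPM against 407 to 417, Mcm5 at 71.1 CPM against 94.5 to 98.6 and Pla2g2d at 7.67 CPM against 2.28 to 2.74. Its others included Uhrf1 at 33.3 CPM against 46.2 to 48.6. The others were spread over the remaining libraries. In the neonatal sham group there were Slfn4 at 60.8 CPM against 132 to 149 in replicate 3, Thbs1 at 1649 CPM against 800.1 to 886 in replicate 1 and Timp1 at 8.53 CPM against 11.6 to 12.3 in replicate 4. In the neonatal MI group there were Cyp1a1 at 0.125 CPM against 0 in replicate 1, Ighm at 87.6 CPM against 50.8 to 55.3 in replicate 3 and Il10 at 8.47 CPM against 14.7 to 16.1 in replicate 1. In the neonatal MI group there were further Mmrn1 at 56.6 CPM against 35.8 to 38.5 in replicate 4, Osm at 132 CPM against 98.5 to 102 in replicate 2 and Ptprc at 873 CPM against 790.0 to 799.9 in replicate 3. In the adult sham group it was Mmp8 at 3.1 CPM against 0.615 to 0.689 in replicate 3. In the adult MI group there were Apoe at 779.6 CPM against 3224 to 4095 in replicate 1, Ifit1 at 28.4 CPM against 8.53 to 10.4 in replicate 3 and Ifit3 at 35.7 CPM against 5.78 to 7.63 in replicate 3. In the adult MI group there were further Saa3 at 132 CPM against 299 to 344 in replicate 3 and Trem2 at 107 CPM against 178 to 184 in replicate 1.

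The test of the difference itself called 3849 genes more positive and 3498 more negative at P56, and 1050 genes had called responses of opposite sign. The values of those named are in the report.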

How the results depend on the processing

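The counts of called genes stayed within 1.5 times the main count under the other pseudocounts, filters, median-of-ratios and quantile scaling, array weights, no trend, edgeR and DESeq2. EdgeR called 3714 genes more positive and 3517 more negative at P56, and DESeq2 3782 and 3906; of the 7347 main calls 6 and 7 changed sign there. Leaving out 1 library gave 3425 to 3871 more positive and 3101 to 3530 more negative genes. Without neonatal sham replicate 4 and adult sham replicate 1 together, chosen after seeing the data, 6851 genes were called and 6343 of 7162 main calls still tested were kept.

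With libraries set to pan-leukocyte markers 2450 genes were more positive and 1146 more negative, 86 higher and 14558 lower at P1, and 545 higher and 13415 lower at P56. With plain library totals 1866 were more negative, and 2287 and 2752 were lower at P1 and P56. Requiring a fold of at least 2 left 1915 more positive and 1806 more negative, 960 higher and 1473 lower at P1, and 1546 higher and 2077 lower at P56. By construction the first sets all genes against leukocyte RNA, and the last only drops genes.

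List counts moved in part: cardiomyocyte markers more negative at P56 went from 13 to 5 and oxidative phosphorylation genes from 22 to 10 under marker scaling, and mitochondrially encoded genes from 6 to 0; the last fell to 3 without neonatal sham replicate 1 or adult MI replicate 3. Cardiomyocyte markers fell to 8 under quantile scaling and without the 2 libraries above. Phagocytosis receptors went from 10 to 5 and lysosomal genes from 8 to 2 with plain totals, and under marker scaling glycolysis genes more positive went from 8 to 4, prostaglandin genes from 8 to 5 and growth factors more negative from 4 to 1. Ngp, near 0 in the adult, changed sign with a pseudocount of 1 (0.095), marker scaling (0.0597) and 5 libraries left out in turn (0.03 to 0.19), none of them called. Xist passed without neonatal sham replicate 4 (-1.77, limma adjusted p 0.00696), 1 (-4.56, 0.0402) or 2 (-4.44, 0.0488).

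Replicate numbers were not used as pairs in the main fit, since the labels do not say that they pair libraries. Same-numbered libraries deviated together with correlations of -0.19 to 0.36 (8 of 24 above 0.1), and 7 of 16 correlated best with their own number. These values do not settle whether the numbers pair libraries. With a replicate block 3878 genes were more positive and 3557 more negative, and of the named genes only Ifit1 changed its call (0.96, limma adjusted p 0.047).

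Il6 in 3 of 4 adult sham libraries, Cxcl3 in all 4, Ltf in 2, Retnla in all neonatal sham libraries, Pla2g2d in most neonatal libraries and Cyp1a1 in every library outside neonatal sham lay at or under the floor of 3 reads, so their fitted differences depend on the 0.5 CPM that was added and are no bound.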

Other observations

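A further set of leukocyte-enriched genes had called responses of opposite sign at the 2 ages with the libraries scaled as deposited; under marker scaling each of the 4 named here kept the call at a single age. The platelet chemokine Ppbp was at 8.87, 9.21, 13.1 and 18 CPM in neonatal sham, 3.32, 5.31, 4.97 and 4.76 in neonatal MI, 1.45, 3.74, 2.48 and 0.646 in adult sham and 10.3, 6.12, 3.68 and 9.91 in adult MI, a difference of 2.99 ± 0.52 (SE; limma adjusted p = 0.000321). The glucose transporter Slc2a3 was lower in each neonatal MI library than in 3 of the 4 neonatal sham libraries and higher in each adult MI library than in any adult sham one (1.62 ± 0.28). Neurl3, a ubiquitin ligase, went from 146–173 to 107–123 CPM at P1 and from 56.8–70.3 to 84.6–128 at P56 (1.17 ± 0.17). Mmrn1, a multimerin, went the other way, from 6.2–18.8 to 35.8–56.6 CPM at P1 and from 40.1–159 to 13.5–31.8 at P56 (-3.56 ± 0.55). Under marker scaling the adult changes of Ppbp (0.53), Slc2a3 (-0.04) and Neurl3 (-0.41) and the neonatal change of Mmrn1 (0.34 log2 units) were not called. The aggrecan-cutting protease Adamts4, which is not leukocyte-enriched, fell from 288, 204, 375 and 345 to 58.5, 35.7, 35.3 and 26.8 CPM at P1 and rose from 1.45, 1.14, 1.82 and 1.16 to 7, 6.55, 5.76 and 8.42 at P56 (4.93 ± 0.31).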
